A study of Mus musculus with 12 samples.

Results

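Day 12 after 4-hydroxytamoxifen was compared with untreated control in PT-22, a mouse kidney cell line labelled as proximal tubule. The comparison uses 6 of the 12 libraries of the study, the 3 labelled as control and the 3 labelled as day 12, chosen by these labels alone. All groups carried the genotype Pax2-/-,Pax8fl/fl,Rosa-CreERT2, so the control cells too lacked Pax2 and held the floxed Pax8 alleles and the inducible Cre. The control cells had no treatment, and the day 12 cells had been given 1 µM 4-hydroxytamoxifen for 2 days, which the labels give as the way to deplete PAX8. All were grown in DMEM with 3% fetal bovine serum, and polyA RNA was sequenced. The remaining libraries, 3 at day 2 and 3 at day 6, entered the same statistical model and serve below only to place the day 12 level.

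PAX8 is a paired-box transcription factor that, with its relative PAX2, directs the nephric lineage in the embryo and remains expressed in adult tubule epithelium. CreERT2 is a Cre recombinase fused to a modified oestrogen receptor, which enters the nucleus when 4-hydroxytamoxifen binds it and then removes DNA between loxP sites. Proximal tubule cells reabsorb most of the filtered solute through a brush border and a basolateral sodium pump, and after injury they can lose these features and take on mesenchymal ones.

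The model has limits set by its design. PT-22 is 1 line, the Rosa locus drives Cre in all cell types, and the labels name replicates A, B and C without saying that they were separate cultures, so the p-values reflect only how far these libraries scatter, possibly for technical reasons. The labels give no time for the untreated cells, and no library used here is labelled as an untreated day 12 culture or as cells treated with the drug but lacking Cre, so loss of PAX8, the drug, Cre activity and time in culture cannot be told apart. Counts per library ran from 7282337 to 9733611 in these 6 libraries, and mitochondrially encoded genes took 4.00% to 4.43% of counts in control and 4.11% to 4.94% at day 12. In bulk RNA, fewer cells of a type and less RNA per cell cannot be told apart.

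The targeted gene was not lower in total counts. Pax8 (chromosome 2, 24420560 to 24475599 in GRCm38) measured 221, 228 and 226 CPM in control and 252, 232 and 241 CPM at day 12, with libraries given here and below in the order A, B, C (log2 fold change 0.10 ± 0.07 (SE), adjusted p = 0.189). An exact two-sided permutation test over 3 against 3 libraries gave p = 0.1, which is the smallest value this design allows. Pax2, which the genotype lacks, measured 42.6, 44.4 and 53.4 CPM in control and 54.6, 47.4 and 49.6 CPM at day 12 (log2 fold change 0.10 ± 0.10 (SE), adjusted p = 0.427, exact permutation p = 0.4). Gene-level counts include exons outside a deleted part, so they check neither the excision of Pax8 nor the Pax2 allele. Pax5, the third member of this subfamily, had 6, 7 and 16 counts in control and 2, 2 and 2 counts at day 12, below the filter for testing. The Cre transcript had 216, 213 and 232 counts in control and 245, 247 and 268 counts at day 12.

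Markers of the labelled cell type were present only in part. In control, the endocytic receptor gene Lrp2, the peptidase gene Anpep, the water channel gene Aqp1 and the kidney cadherin gene Cdh16 were at 268, 114, 173 and 1103 CPM (counts per 1000000). The phosphate carrier gene Slc34a1, the glucose carrier gene Slc5a2 and the lactate carrier gene Slc5a12 had 0 counts in all 6 libraries, and the organic anion carrier gene Slc22a6 had 1 count over the 6. Each of these zeros allows up to 3 counts a library, for counting error only. Among markers of other cell types, the 20 genes of the list for fibroblasts and smooth muscle summed to 61.3 to 69.6 CPM in control and 375 to 429 CPM at day 12. Without Acta2, whose own values are given below, the other members of that list summed to 57.8 to 67.0 CPM in control and 96.0 to 106 CPM at day 12, a split made after the values were seen. Over all genes tested, 26.1% rose and 26.6% fell, terms defined in the next paragraph. Of the 10 tested members of the full fibroblast and smooth muscle list 7 rose, 1 fell and 2 did not pass, while the fibroblast genes Pdgfra and Col3a1 had 0 counts. Podocyte and parietal epithelium markers summed to 1268 to 1309 CPM in control and 1496 to 1556 CPM at day 12, and of 12 tested 6 rose, 3 fell and 3 did not pass. Collecting duct markers summed to 119 to 126 CPM in control and 93.6 to 107 CPM at day 12 and loop of Henle and distal tubule markers to 542 to 561 CPM in control and 516 to 536 CPM at day 12. Leukocyte markers summed to 31.9 to 34.7 CPM in control and 33.5 to 37.4 CPM at day 12 and endothelial markers to 38.8 to 40.0 CPM in control and 54.7 to 54.8 CPM at day 12, with Cdh5 at 0. Members moved also where sums changed little, in lists with few tested genes to set against these shares. Of 5 tested leukocyte markers 4 rose and 1 fell, and of 3 endothelial markers 1 rose, 1 fell and 1 did not pass. Of 6 tested collecting duct markers 1 rose, 3 fell and 2 did not pass. Of 7 tested loop of Henle and distal tubule markers 3 rose, 3 fell and 1 did not pass. The part of such cells in the results was not tested.

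Many of the tested genes differed between day 12 and control. Of 55491 genes, 13513 passed the filter on low counts, and 7133 of these (52.8%) had an adjusted p under 0.05, which is what "rose" and "fell" mean below. Among them 3532 (26.1%) were higher and 3601 (26.6%) lower. At least a 2-fold change was fitted for 1853 genes (13.7%), 1045 (7.73%) higher and 808 (5.98%) lower, and at least a 10-fold change for 168 higher and 132 lower genes. The 3 control and the 3 day 12 values did not overlap for 8081 genes (59.8%). Between day 12 and day 6, which share no library, 2971 genes (22%) differed, 1482 (11%) higher and 1489 (11%) lower. That count was 1793 at an adjusted p under 0.01, and 1379 and 1300 with limma on log2(TPM + 1) and log2(TPM + 0.1). The median log2 fold change over all genes tested, day 12 minus control, was -0.0028. These shares are the background against which the gene lists are read.

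**Figure D1:**
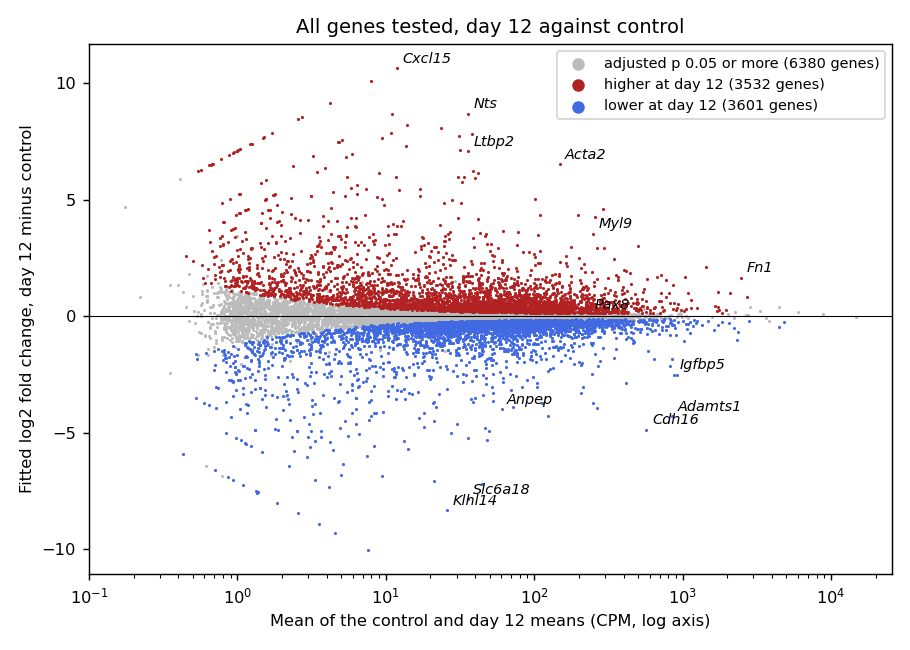
Fitted log2 fold change, day 12 minus control, of each of the 13513 genes tested against the mean level in CPM (log axis). The 3532 higher and 3601 lower genes fan out on both sides of 0, with Cxcl15 and Nts near the top, Klhl14 and Slc6a18 near the bottom, and Pax8 close to 0.

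Genes of tubule identity were lower at day 12 in several lists, although members went both ways. Of 36 tested nephric transcription factor genes, 13 rose, 18 fell and 5 did not pass, with a median log2 fold change of -0.28. Hnf4a, which encodes a nuclear receptor that drives proximal tubule genes, measured 15.1, 13.8 and 9.41 CPM in control and 2.57, 2.36 and 1.23 CPM at day 12. Every day 12 value lay below every control value (log2 fold change -2.64 ± 0.26 (SE), adjusted p = 8.38e-11). The epithelial Ets factor gene Ehf fell from 34.1 ± 3.25 to 1.89 ± 0.622 CPM, the homeobox gene Irx3 from 88.8 ± 10.2 to 22.2 ± 1.40 CPM, the orphan receptor gene Esrrg from 19.6 ± 1.88 to 3.75 ± 1.40 CPM and the mitochondrial coactivator gene Ppargc1a from 69.5 ± 4.46 to 33.6 ± 2.07 CPM.

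Other nephric regulators went up. Maf, a leucine zipper factor of the tubule, measured 41.4, 36.3 and 40.7 CPM in control and 336, 303 and 309 CPM at day 12. Eya1, a coactivator of early kidney development, measured 23.6, 24.6 and 23.0 CPM in control and 156, 158 and 168 CPM at day 12. The groups did not overlap for either gene (log2 fold change 2.9982 ± 0.07 (SE), adjusted p = 3.81e-28 for Maf and log2 fold change 2.76 ± 0.07 (SE), adjusted p = 1.39e-26 for Eya1). Both were nonetheless below their day 6 level (log2 difference from day 6 -0.25, adjusted p = 0.00117 for Maf and log2 difference from day 6 -0.18, adjusted p = 0.0191 for Eya1). Sox4 rose from 211 ± 9.56 to 418 ± 10.9 CPM and Foxc1 from 12.3 ± 0.203 to 28.8 ± 1.25 CPM.

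Brush border genes were more often lower than higher. Of 30 tested brush border and endocytosis genes, 5 rose, 17 fell and 8 did not pass, with a median log2 fold change of -0.66, and 14 fell by at least 2-fold. Anpep, which encodes aminopeptidase N of the microvillus, measured 111, 114 and 117 CPM in control and 6.88, 6.73 and 7.70 CPM at day 12. All day 12 libraries were far below all control libraries (log2 fold change -3.99 ± 0.10 (SE), adjusted p = 2.22e-27). The peptidase genes Ggt1 and Mme fell, Ggt1 from 26.1 ± 2.32 to 2.69 ± 0.119 CPM and Mme from 216 ± 11.5 to 85.4 ± 6.65 CPM, and so did the folate receptor gene Folr1, from 109.8 ± 7.45 to 35.6 ± 3.06 CPM. Pdzk1, a scaffold of apical carriers, had 72, 60 and 79 counts in control and 0, 0 and 1 counts at day 12. Lrp2, which encodes megalin, measured 283, 249 and 272 CPM in control and 97.8, 92.6 and 97.4 CPM at day 12. It had stood at 229.7 ± 15.6 CPM at day 6 and was lower at day 12 (log2 difference from day 6 -1.26, adjusted p = 5.06e-16). In the other direction, the actin regulator gene Eps8 rose from 29.2 ± 2.15 to 71.8 ± 2.35 CPM and the megalin adaptor gene Dab2 from 89.8 ± 4.53 to 175 ± 10.1 CPM.

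Carriers were split. Of 33 tested tubule solute carrier and pump genes, 7 rose, 15 fell and 11 did not pass, with a median log2 fold change of -0.41. Slc6a18, an apical amino acid transporter gene (chromosome 13, 73661752 to 73678023), measured 73.4, 68.9 and 70.9 CPM in control and 0.467, 0.224 and 0.205 CPM at day 12 and was 230.4-fold lower. Its relative Slc6a19 fell from 12.3 ± 1.34 to 2.47 ± 0.288 CPM, the sodium bicarbonate symporter gene Slc4a4 likewise from 98.5 ± 2.05 to 34.6 ± 1.77 CPM and the organic cation exporter gene Slc47a1 from 6.53 ± 1.10 to 0.140 ± 0.156 CPM. The sodium pump subunit gene Atp1b1 fell from 547 ± 25.0 to 346 ± 14.2 CPM. Upward, the cationic amino acid transporter gene Slc7a2 measured 0.230, 0.277 and 0.314 CPM in control and 64.2, 64.6 and 56.5 CPM at day 12, which was 213-fold higher. Aqp1 rose from 173 ± 3.37 to 659 ± 101 CPM and the monocarboxylate carrier gene Slc16a1 from 107 ± 0.686 to 242 ± 11.5 CPM. In tubule metabolism, 6 rose, 7 fell and 10 did not pass of 23 tested, shares close to the background (26.1% and 26.6% of all genes tested). Ass1, an enzyme of arginine synthesis, rose from 30.4 ± 3.51 to 100.1 ± 4.38 CPM after standing at 30.1 ± 4.13 CPM at day 6 (log2 difference from day 6 1.73, adjusted p = 2.40e-16).

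Junction genes changed in composition. Of 25 tested cadherin and adherens junction genes, 7 rose, 12 fell and 6 did not pass, with a median log2 fold change of -0.15. Cdh16 (chromosome 8, 104601911 to 104624396) measured 1062, 1083 and 1163 CPM in control and 41.8, 34.5 and 37.6 CPM at day 12. Its groups lay more than an order of magnitude apart (log2 fold change -4.86 ± 0.07 (SE), adjusted p = 1.38e-33), and the fall went on after day 6 (log2 difference from day 6 -1.09, adjusted p = 1.04e-13). Cdh6 fell from 729.6 ± 23.1 to 101 ± 0.597 CPM, Cdh3 from 168 ± 5.47 to 51.7 ± 1.53 CPM and Cdh1, the E-cadherin gene, from 27.4 ± 2.61 to 2.68 ± 0.120 CPM. The catenin genes went the other way: Ctnnb1, which encodes beta-catenin, rose from 391 ± 12.7 to 1160.5 ± 21.5 CPM, and Ctnnd1 rose from 202 ± 3.25 to 392 ± 8.02 CPM. Of 33 tested tight junction and polarity genes, 6 rose, 21 fell and 6 did not pass, with a median log2 fold change of -0.53. Cldn1 fell from 41.2 ± 2.24 to 9.44 ± 0.813 CPM, the occludin gene Ocln from 24.0 ± 3.24 to 7.45 ± 0.818 CPM, the polarity gene Llgl2 from 122 ± 8.48 to 35.0 ± 2.90 CPM and the adhesion gene Epcam from 94.7 ± 7.32 to 48.6 ± 3.39 CPM. F11r, which encodes a junctional adhesion molecule, rose from 93.6 ± 0.984 to 259 ± 13.8 CPM, and the cingulin-like gene Cgnl1 from 201 ± 1.71 to 446 ± 26.8 CPM. Against day 6, the tight junction list had 1 higher and 10 lower members.

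Contractile genes were higher as a list, in 32 of 39 tested members, with 3 lower, 4 not past the threshold and a median log2 fold change of 1.06. Acta2 (chromosome 19, 34241090 to 34255590), which encodes the actin of smooth muscle and myofibroblasts, measured 3.46, 2.63 and 3.24 CPM in control and 276, 324 and 280.0 CPM at day 12. The groups were wide apart and the gene was 93.0-fold higher (log2 fold change 6.54 ± 0.15 (SE), adjusted p = 6.35e-17). Tagln, an actin cross-linker of smooth muscle, measured 2.07, 1.38 and 1.57 CPM in control and 41.5, 61.6 and 59.4 CPM at day 12 (log2 fold change 4.9950 ± 0.19 (SE), adjusted p = 1.53e-20). Library A was the lowest of the 3 at day 12 and still above every control library.

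Myl9, a regulatory myosin light chain gene, measured 36.6, 40.3 and 40.8 CPM in control and 440.2, 471 and 464 CPM at day 12 (log2 fold change 3.55 ± 0.07 (SE), adjusted p = 1.98e-29). Actg2, the enteric smooth muscle actin gene, had 0, 0 and 1 counts in control and 165, 213 and 219 counts at day 12, a count ratio of 559 with a 95% interval of 99.9 to 22108. Fhl1, a LIM protein of muscle, rose from 1.43 ± 0.208 to 24.6 ± 2.31 CPM, the calponin gene Cnn2 from 103 ± 6.08 to 389 ± 6.31 CPM, the caldesmon gene Cald1 from 488 ± 13.8 to 1229 ± 15.6 CPM and the actin-bundling gene Actn1 from 181 ± 1.38 to 414 ± 7.28 CPM. The nonmuscle myosin gene Myh9 rose from 1934 ± 105 to 3450.4 ± 372 CPM and the filamin gene Flna from 1126 ± 21.8 to 2341 ± 123 CPM. Not every member followed: the smoothelin gene Smtn fell from 188 ± 9.04 to 52.4 ± 5.43 CPM, and the tropomyosin gene Tpm1 stood at 1119 and 1059 CPM without passing (adjusted p = 0.183). The sum of fibroblast and smooth muscle markers given above moved with this list, mostly through Acta2, and its part in the result was not tested.

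The contractile levels at day 12 were not those of day 6. Of the list, 28 were higher and 2 lower at day 12 than at day 6, against 11% of all genes in each direction. Acta2 was at 65.3 ± 10.3 CPM at day 6 (log2 difference from day 6 2.16, adjusted p = 2.70e-11), Tagln at 11.3 ± 1.15 CPM at day 6 (log2 difference from day 6 2.27, adjusted p = 6.73e-14) and Myl9 at 189.5 ± 5.41 CPM at day 6 (log2 difference from day 6 1.27, adjusted p = 1.15e-16). Dcn, a small proteoglycan gene of fibroblasts, was at 3.91 ± 0.399 CPM at day 6 and at 17.8 ± 1.33 CPM at day 12 (log2 difference from day 6 2.19, adjusted p = 4.94e-11).

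The promoters of Myl9 and Fhl1 are shown because each held an exact match to the CArG box, the motif bound by serum response factor at muscle genes, chosen with the values known. Capitals mark the match, which begins 161 bases before the start site in Myl9 (chr2:156775288-156775327, plus strand) and 102 in Fhl1 (chrX:56779566-56779605, plus strand), in RefSeq on GRCm38.p6.
Myl9: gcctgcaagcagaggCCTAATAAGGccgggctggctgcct
Fhl1: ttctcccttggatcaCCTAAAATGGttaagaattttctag
On either strand, 1.63% of all 32851 promoter windows of 300 bases held the motif. Of the 39 tested contractile genes, 32 matched a promoter entry, and 7 of their 41 windows, from 6 genes (Acta1, Cnn2, Fhl1, Fhl2, Myl6 and Myl9), held it. The window of Acta2 had no exact match. The list was built from muscle and actin genes, where this motif is known, so the share is no independent result. A match describes letters only.

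**Figure D2:**
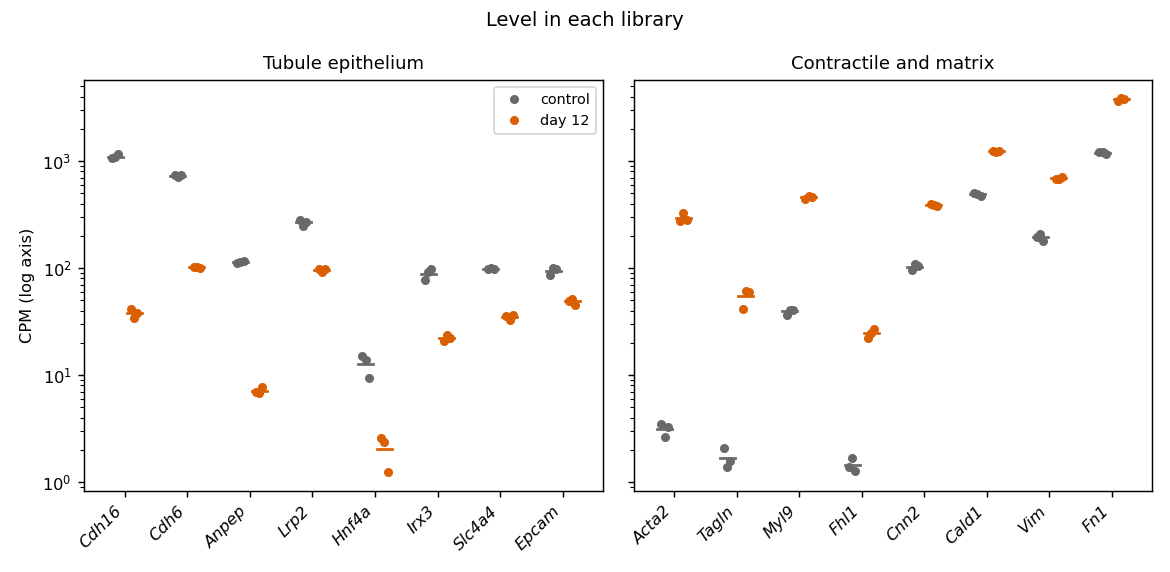
Level in CPM (log axis) of 8 tubule genes (left) and 8 contractile and matrix genes (right). Points are the libraries A, B and C of control (dark) and day 12 (orange), and bars are group means. The genes shown are a selection. In all 16 the groups do not overlap, as in 59.8% of all genes tested. The tubule genes shown are lower and the contractile and matrix genes shown higher at day 12. Members of these lists that went the other way, such as Aqp1, Dab2, Eps8 and Smtn, are not shown.

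The matrix that these cells transcribed was a different mixture. Of 45 tested matrix glycoprotein and proteoglycan genes, 30 rose, 6 fell and 9 did not pass, with a median log2 fold change of 0.83. Fn1, which encodes fibronectin, measured 1206, 1224 and 1155 CPM in control and 3643, 3853 and 3819 CPM at day 12, a non-overlapping rise (log2 fold change 1.66 ± 0.05 (SE), adjusted p = 9.99e-24). Ltbp2, a microfibril-associated gene, measured 0.576, 0.415 and 0.523 CPM in control and 66.7, 79.1 and 68.4 CPM at day 12 and was 136-fold higher. The syndecan gene Sdc1 rose from 107 ± 5.55 to 586 ± 14.1 CPM, the fibulin gene Fbln2 from 8.98 ± 1.13 to 69.4 ± 8.49 CPM, the osteopontin gene Spp1 from 1365 ± 37.5 to 2772 ± 100.3 CPM and the thrombospondin gene Thbs1 from 313 ± 7.90 to 1024 ± 27.7 CPM. Thbs1 had been higher at day 6 (log2 difference from day 6 -0.87, adjusted p = 6.06e-15). The growth factor-binding gene Igfbp5 fell from 1495 ± 106 to 265 ± 19.7 CPM and the basement membrane gene Agrn from 645 ± 21.5 to 299 ± 2.995 CPM.

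Collagen genes went both ways. Of 33 tested collagen and collagen-processing genes, 14 rose, 12 fell and 7 did not pass. Several basement membrane chains fell: Col4a3 from 55.7 ± 3.68 to 13.2 ± 1.04 CPM, Col4a4 from 80.1 ± 3.26 to 21.7 ± 2.59 CPM, Col4a5 from 82.3 ± 3.47 to 36.3 ± 0.725 CPM and Col18a1 from 1002 ± 49.0 to 281 ± 12.9 CPM. Col6a1 rose from 114 ± 5.67 to 232 ± 15.5 CPM, Col6a2 from 14.9 ± 1.12 to 72.9 ± 6.39 CPM and the fibril-associated chain gene Col12a1 from 15.2 ± 0.943 to 92.1 ± 3.67 CPM. Col1a1, the fibrillar chain gene of fibroblasts, stood at 2.20 and 3.03 CPM without passing (adjusted p = 0.212). Of 30 integrin, laminin and related receptor genes, 18 rose, 9 fell and 3 did not pass. Itgb3, a subunit gene of the vitronectin receptor, rose from 27.4 ± 2.04 to 173 ± 6.10 CPM and Itga2 from 43.7 ± 2.75 to 112 ± 12.5 CPM, while Lama1 fell from 47.0 ± 4.48 to 9.42 ± 1.09 CPM.

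Among genes of matrix proteases and their inhibitors, more rose than fell: 23 rose, 9 fell and 6 did not pass of 38 tested. Over all genes tested, 26.1% rose and 26.6% fell. Adamts1, a metalloprotease gene that cleaves proteoglycans, measured 1659, 1551 and 1639 CPM in control and 81.3, 78.5 and 88.4 CPM at day 12 (log2 fold change -4.29 ± 0.07 (SE), adjusted p = 5.43e-33). The control libraries were all far above the day 12 libraries. Adamts5 fell from 493 ± 24.5 to 32.4 ± 1.80 CPM and the membrane-bound Mmp15 from 56.6 ± 6.41 to 10.1 ± 1.25 CPM. Mmp13, an interstitial collagenase gene, had 1, 1 and 0 counts in control and 166, 165 and 179 counts at day 12, a count ratio of 239 with a 95% interval of 65.7 to 1976. Mmp10 had 0, 0 and 0 counts in control and 75, 76 and 79 counts at day 12 and was at least 71.8-fold higher. The thrombin inhibitor gene Serpind1 had 1, 1 and 0 counts in control and 241, 227 and 293 counts at day 12, a count ratio of 356 with a 95% interval of 98.3 to 2946.

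Genes known from injured proximal tubule followed in part. Of 45 tested genes of that list, 25 rose, 10 fell and 10 did not pass, with a median log2 fold change of 0.37. Vim, the vimentin gene, rose from 193 ± 14.4 to 691 ± 19.6 CPM. Clu, which encodes clusterin, rose from 285 ± 18.3 to 871 ± 21.5 CPM. Cd44, a hyaluronan receptor gene, rose from 62.6 ± 4.27 to 176 ± 12.8 CPM. Akap12, a kinase scaffold gene, fell from 1567 ± 57.4 to 274 ± 13.6 CPM. In the intermediate filament list 8 rose, 2 fell and 5 did not pass of 15, and the keratin gene Krt8 rose from 3.09 ± 0.672 to 9.84 ± 2.37 CPM.

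Factors of the epithelial-mesenchymal switch were mostly higher. Of 18 tested genes of that list, 13 rose, 3 fell and 2 did not pass, with a median log2 fold change of 1.39. Zeb1, a repressor of epithelial genes, measured 23.3, 21.7 and 23.3 CPM in control and 72.1, 71.6 and 80.2 CPM at day 12 (log2 fold change 1.71 ± 0.08 (SE), adjusted p = 3.09e-19). Runx2 rose from 4.70 ± 0.721 to 37.4 ± 3.48 CPM and Twist2 from 0.875 ± 0.301 to 9.04 ± 1.52 CPM, while Twist1 and Snai2 were below the filter. Snai1 rose from 1.68 ± 0.373 to 7.92 ± 1.25 CPM. Ovol1, which encodes an epithelial repressor, fell from 6.83 ± 1.32 to 0.377 ± 0.242 CPM, and the splicing regulator genes Esrp1 and Esrp2 fell from 0.974 ± 0.163 to 0.0731 ± 0.0637 CPM and from 13.0 ± 0.310 to 6.15 ± 1.21 CPM. Of this list, 10 were higher and 0 lower at day 12 than at day 6.

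TGF-beta and BMP pathway genes rose in 32 of 45 tested, fell in 8 and did not pass in 5 (median log2 fold change 0.68). Among ligands, the activin subunit genes Inhba and Inhbb rose from 5.77 ± 0.778 to 34.0 ± 1.43 CPM and from 6.80 ± 1.07 to 70.3 ± 4.88 CPM, and Tgfb2 rose from 15.2 ± 0.635 to 50.8 ± 5.85 CPM. Among receptors, Acvr1 rose from 16.7 ± 1.94 to 54.8 ± 0.990 CPM and Tgfbr2 fell from 332 ± 14.9 to 152 ± 11.2 CPM. Among transducers, Smad9 rose from 3.72 ± 0.659 to 30.6 ± 1.32 CPM and Smad3 from 145 ± 4.66 to 191 ± 9.68 CPM. Id1 and Id3, target genes of BMP receptors that encode inhibitors of helix-loop-helix factors, came last in this order. Id3 measured 15.8, 17.3 and 19.1 CPM in control and 189, 205 and 193 CPM at day 12 (log2 fold change 3.49 ± 0.10 (SE), adjusted p = 2.61e-23) and Id1 rose from 46.7 ± 6.90 to 281 ± 19.3 CPM. Both stood above their day 6 level (log2 difference from day 6 1.21, adjusted p = 9.62e-13 for Id3 and log2 difference from day 6 0.81, adjusted p = 2.39e-06 for Id1). The TGF-beta feedback genes Pmepa1 and Skil rose from 65.8 ± 5.69 to 229 ± 7.66 CPM and from 61.1 ± 5.12 to 158 ± 3.23 CPM.

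Other growth pathways gave mixed lists. Of 38 growth factor and peptide ligand genes, 20 rose, 9 fell and 9 did not pass. Nts, which encodes the peptide neurotensin, had 3, 1 and 0 counts in control and 671, 574 and 690 counts at day 12 and was 415-fold higher. Kitl, the ligand gene of Kit, rose from 27.1 ± 1.83 to 192 ± 4.82 CPM, Fgf7 from 3.14 ± 0.0907 to 58.3 ± 4.15 CPM and Gdnf, the ligand gene of Ret, from 1.28 ± 0.153 to 15.2 ± 1.51 CPM. Igf1 fell from 417 ± 6.12 to 74.9 ± 6.48 CPM, and Angptl1 had 129, 95 and 169 counts in control and 0, 0 and 0 counts at day 12, at least 140.0-fold lower. Among 31 receptor tyrosine kinase genes, 13 rose, 15 fell and 3 did not pass. Axl rose from 187 ± 6.37 to 546 ± 10.9 CPM and Epha4 from 17.2 ± 1.03 to 68.9 ± 2.08 CPM, while Egfr fell from 111 ± 4.24 to 40.7 ± 0.605 CPM, Erbb4 from 85.0 ± 2.94 to 19.7 ± 1.10 CPM, Met from 230.2 ± 13.2 to 126 ± 11.66 CPM and Fgfr4 from 10.4 ± 0.372 to 1.38 ± 0.866 CPM. Of these receptor genes, 4 were higher and 15 lower at day 12 than at day 6.

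ERK feedback and immediate early genes rose in 25 of 42 tested and fell in 6. Junb rose from 16.9 ± 1.67 to 71.0 ± 2.46 CPM, the phosphatase gene Dusp4 from 4.08 ± 0.657 to 27.3 ± 2.45 CPM and the nuclear receptor gene Nr4a1 from 7.34 ± 1.06 to 25.6 ± 0.824 CPM. All 3 were below day 6, where Junb was at 94.5 ± 5.57 CPM at day 6 (log2 difference from day 6 -0.41, adjusted p = 3.83e-05). Of the list, 6 were higher and 19 lower at day 12 than at day 6. YAP and TEAD target genes (32 tested) numbered 17 risen and 10 fallen. Amotl1 rose from 42.9 ± 1.79 to 82.3 ± 6.78 CPM, and Nt5e, an ecto-nucleotidase gene, fell from 73.5 ± 3.80 to 6.47 ± 1.38 CPM. The cofactor gene Vgll4 rose from 39.2 ± 3.72 to 107 ± 5.89 CPM and the TEAD factor gene Tead1 fell from 213 ± 11.8 to 121 ± 5.27 CPM.

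In the WNT list 22 rose, 9 fell and 13 did not pass of 44. The ligand gene Wnt4 rose from 42.2 ± 2.75 to 145 ± 2.76 CPM, Wnt7b fell from 46.0 ± 3.75 to 15.4 ± 0.725 CPM, the receptor gene Fzd1 rose from 13.0 ± 0.526 to 37.1 ± 2.61 CPM, the coreceptor gene Lrp5 fell from 221 ± 14.2 to 89.6 ± 8.76 CPM and the secreted Dkk3 rose from 74.8 ± 4.58 to 358 ± 3.94 CPM. In the Notch list 17 rose, 3 fell and 8 did not pass of 28. The noncanonical ligand gene Dlk1 had 1, 0 and 1 counts in control and 85, 97 and 110 counts at day 12, a count ratio of 137 with a 95% interval of 37.5 to 1134, and the receptor gene Notch3 rose from 3.52 ± 0.677 to 11.9 ± 1.34 CPM. Guidance genes (47 tested) numbered 26 risen and 12 fallen, and family members went apart. Sema5a fell from 459.6 ± 23.8 to 35.1 ± 2.65 CPM, Sema5b from 18.9 ± 1.13 to 0.149 ± 0.0728 CPM and Sema4d from 147 ± 7.87 to 41.2 ± 3.47 CPM, whereas the secreted Sema3a rose from 32.1 ± 2.34 to 122 ± 6.05 CPM, Sema3c from 332 ± 25.5 to 757 ± 64.5 CPM, Sema3d from 1.02 ± 0.221 to 65.9 ± 1.68 CPM and Sema3e from 29.7 ± 2.37 to 89.2 ± 4.27 CPM. Nrp2, a semaphorin receptor gene, rose from 61.6 ± 4.05 to 273 ± 10.99 CPM.

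Inflammatory genes were higher in both immune lists. Of 48 tested genes of the NF-kB list, 36 rose, 4 fell and 8 did not pass, with a median log2 fold change of 0.92. Nfkbia, which encodes the inhibitor that holds NF-kB in the cytoplasm, measured 23.3, 29.5 and 26.4 CPM in control and 94.2, 95.6 and 93.1 CPM at day 12 (log2 fold change 1.84 ± 0.08 (SE), adjusted p = 1.15e-19). Tnfaip3, a ubiquitin-editing inhibitor gene, measured 8.52, 9.13 and 9.09 CPM in control and 113, 116 and 111 CPM at day 12 (log2 fold change 3.67 ± 0.09 (SE), adjusted p = 2.22e-27). Neither overlapped between the groups. The subunit gene Relb rose from 17.9 ± 1.56 to 51.9 ± 3.57 CPM and Nfkbie, another inhibitor, from 12.8 ± 0.364 to 41.6 ± 0.954 CPM. C3, the central complement component, measured 500.1, 533 and 592 CPM in control and 1032, 1085 and 1124 CPM at day 12, and it had been at 549.7 ± 31.8 CPM at day 6 (log2 difference from day 6 0.97, adjusted p = 1.51e-14). The acute-phase gene Saa3 rose from 0.982 ± 0.0494 to 76.2 ± 2.46 CPM and the chemokine gene Cxcl16 from 18.2 ± 0.695 to 72.1 ± 4.10 CPM. Cxcl15 had 0, 0 and 0 counts in control and 217, 191 and 235 counts at day 12 and was at least 201-fold higher, with control set to 3 counts over the group. Of the list, 23 were higher and 4 lower at day 12 than at day 6.

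The promoters of Nfkbia and Nfkbie are shown because both inhibitor genes rose and both windows held the kB site, chosen with the values known. The Nfkbia window is chr12:55492652-55492691, minus strand and the Nfkbie window chr17:45555579-45555618, plus strand, from RefSeq on GRCm38.p6. Capitals mark the match, which begins 29 bases before the start site in Nfkbia, on the opposite strand, and 106 in Nfkbie.
Nfkbia: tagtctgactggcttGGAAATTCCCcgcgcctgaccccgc
Nfkbie: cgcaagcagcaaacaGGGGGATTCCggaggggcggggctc
The site was in 8.46% of all promoter windows and in 23 of the 46 windows of the 37 matched genes of the list (tested genes, 48). The list was built from genes known to respond to NF-kB, so the share is no independent result.

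Of 65 tested interferon response and antigen presentation genes, 42 rose, 4 fell and 19 did not pass, with a median log2 fold change of 0.77. The p200 family, nuclear DNA sensors and their relatives, made up several of the largest rises. Ifi203 measured 0, 0.277 and 0.209 CPM in control and 46.8, 48.7 and 45.1 CPM at day 12 and was 273-fold higher. Ifi204 rose from 4.39 ± 0.654 to 79.6 ± 2.58 CPM, Ifi205 from 0.0768 ± 0.133 to 21.6 ± 1.98 CPM and Ifi211 from 0.420 ± 0.128 to 62.5 ± 6.06 CPM. Ifi203 and Ifi205 were higher at day 12 than at day 6 (log2 difference from day 6 2.48, adjusted p = 2.66e-12 for Ifi203 and log2 difference from day 6 2.45, adjusted p = 2.29e-10 for Ifi205). The guanylate-binding gene Gbp2 rose from 7.06 ± 0.443 to 41.7 ± 1.71 CPM. The class I genes H2-D1 and H2-K1 rose from 93.1 ± 3.83 to 345 ± 2.80 CPM and from 132 ± 7.50 to 296 ± 5.51 CPM, their light chain gene B2m from 139 ± 3.89 to 319 ± 20.1 CPM and the loading factor gene Tapbp from 251 ± 13.7 to 381 ± 6.61 CPM. The interferon-induced Ifit3b fell from 31.7 ± 2.91 to 1.54 ± 0.325 CPM. Values of the p200, H2, Ifit3 and Gstm genes are uncertain, since near-identical copies can exchange reads.

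Sterol synthesis genes were lower at most of the steps examined. Of 18 enzyme genes of the pathway, 17 fell, 0 rose and Ebp did not pass, and 11 were also lower at day 12 than at day 6. In the wider list of synthesis and uptake, 7 rose, 24 fell and 4 did not pass of 35 (median log2 fold change -0.84). Hmgcs1, the enzyme gene that feeds the mevalonate pathway, measured 447, 413 and 445 CPM in control and 102, 100.3 and 98.1 CPM at day 12 (log2 fold change -2.12 ± 0.06 (SE), adjusted p = 1.16e-25). The squalene epoxidase gene Sqle fell from 320.3 ± 8.30 to 82.8 ± 4.58 CPM. All 3 day 12 values of Hmgcs1 lay below all control values.

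Genes of sterol control and export changed too. Srebf2, the transcription factor gene of the pathway, fell from 639.7 ± 20.8 to 286 ± 7.50 CPM, and Insig1, which holds that factor in the endoplasmic reticulum, from 144 ± 11.1 to 52.5 ± 2.15 CPM. The export pump gene Abca1 went the other way and measured 10.4, 12.3 and 11.9 CPM in control and 139.6, 148 and 141 CPM at day 12 (log2 fold change 3.63 ± 0.09 (SE), adjusted p = 1.23e-27). Srebf2 was at 533 ± 25.8 CPM at day 6 (log2 difference from day 6 -0.90, adjusted p = 2.77e-14) and Insig1 at 135 ± 5.78 CPM at day 6 (log2 difference from day 6 -1.36, adjusted p = 3.68e-16).

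The Hmgcs1 promoter is shown as the window of the list that held the sterol response element TCACNCCAC, searched on both strands and chosen with the values known. It lies at chr13:119690199-119690237, plus strand in RefSeq on GRCm38.p6, and the match in capitals begins 137 bases before the start site.
Hmgcs1: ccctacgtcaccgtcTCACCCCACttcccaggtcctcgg
The element was in 1.24% of all windows and in 1 of the 33 windows of the 25 matched sterol genes, out of 35 tested.

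**Figure D3:**
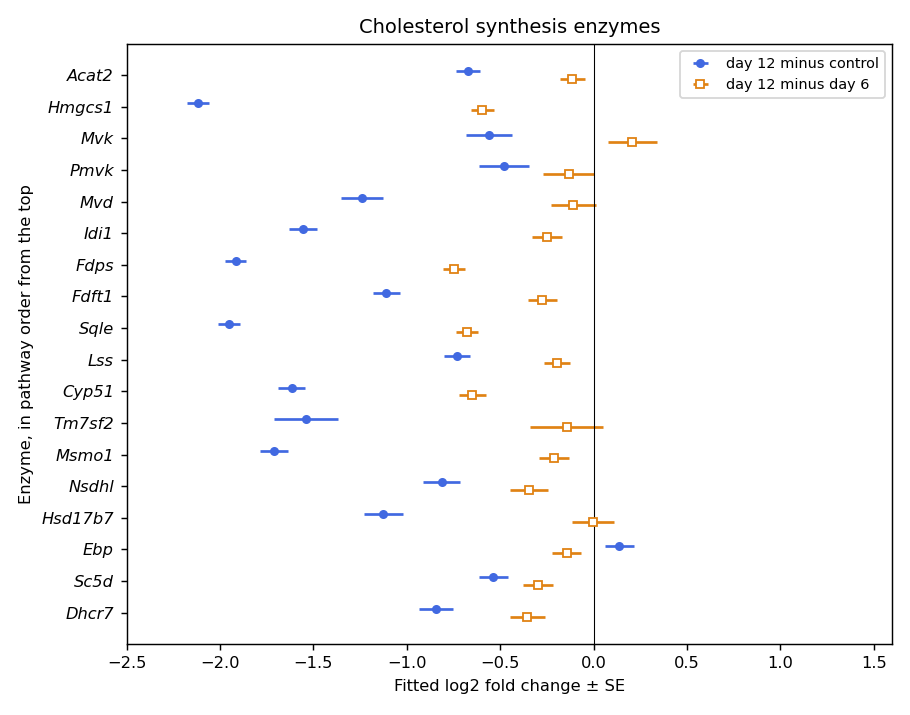
Fitted log2 fold change ± SE of 18 cholesterol synthesis enzyme genes in pathway order, day 12 minus control (filled circles) and day 12 minus day 6 (open squares). In 17 of 18 the circle is left of 0 and passes the threshold, and Hmgcs1, Fdps and Sqle lie farthest left.

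Fatty acid synthesis and storage genes fell in 20 of 34 tested and rose in 7. The elongase gene Elovl6 fell from 96.1 ± 7.30 to 9.68 ± 1.52 CPM, the desaturase genes Fads1 and Fads2 from 619 ± 7.29 to 308 ± 6.89 CPM and from 422 ± 31.1 to 164 ± 3.60 CPM, and the lipase gene Mgll from 34.7 ± 1.90 to 1.31 ± 0.719 CPM. The lipid droplet genes Plin2 and Plin4 rose from 96.6 ± 3.97 to 195 ± 5.93 CPM and from 6.89 ± 0.234 to 35.4 ± 0.872 CPM. In the list of fatty acid oxidation 15 rose, 17 fell and 27 did not pass of 59, shares close to the background. Fabp5, a fatty acid-binding protein gene, rose from 16.3 ± 1.04 to 137 ± 9.63 CPM.

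Many genes of energy metabolism were lower, most of them by less than 2-fold. Of 69 tested nuclear genes of oxidative phosphorylation, 0 rose, 55 fell and 14 did not pass, with a median log2 fold change of -0.42, and the ATP synthase gene Atp5b fell from 1394 ± 62.5 to 848 ± 31.1 CPM. Of 13 mitochondrially encoded genes, 0 rose, 1 fell and 12 did not pass. In the citrate cycle list 1 rose, 21 fell and 3 did not pass of 25, with Mdh2, a malate dehydrogenase gene, down from 351 ± 15.6 to 188 ± 3.26 CPM. Of 43 tested glycolysis and gluconeogenesis genes, 5 rose, 33 fell and 5 did not pass, with a median log2 fold change of -0.49. Ldha, which encodes lactate dehydrogenase, measured 951, 1168 and 978 CPM in control and 561, 625 and 615 CPM at day 12 (log2 fold change -0.78 ± 0.06 (SE), adjusted p = 9.25e-12). Gapdh fell from 2894 ± 222 to 1805 ± 26.8 CPM, Pgk1 from 756 ± 52.2 to 494 ± 41.5 CPM and Aldoa from 1151 ± 123 to 654 ± 42.6 CPM. These had been lower still at day 6: Ldha was at 374 ± 16.1 CPM at day 6 (log2 difference from day 6 0.68, adjusted p = 2.93e-09), and of the list 17 were higher and 2 lower at day 12 than at day 6.

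Stress response and metal handling genes went in both directions. Over all genes tested, 26.1% rose and 26.6% fell. Of 51 NRF2 target and glutathione genes, 13 rose, 27 fell and 11 did not pass. The aldose reductase gene Akr1b3 fell from 206 ± 7.96 to 40.6 ± 2.40 CPM and the glutathione reductase gene Gsr from 270.5 ± 7.37 to 77.4 ± 3.27 CPM, but the secreted peroxidase gene Gpx3 rose from 161 ± 12.2 to 643 ± 33.6 CPM. In the hypoxia list 11 rose, 19 fell and 9 did not pass of 39; Hif1a rose from 174 ± 4.28 to 555 ± 17.4 CPM and the carbonic anhydrase gene Car12 fell from 76.5 ± 4.39 to 13.3 ± 1.94 CPM. Among ATF4 targets 10 rose, 24 fell and 11 did not pass of 45, with Stc2, a secreted glycoprotein gene, down from 128 ± 0.927 to 21.9 ± 0.593 CPM. In the unfolded protein list 12 rose, 12 fell and 13 did not pass of 37, and 17 were higher and 1 lower at day 12 than at day 6. Cp, the copper-carrying ferroxidase ceruloplasmin, measured 538, 497 and 566 CPM in control and 2305, 2356 and 2335 CPM at day 12 (log2 fold change 2.13 ± 0.06 (SE), adjusted p = 1.59e-24), while the metal importer gene Slc39a14 fell from 114 ± 4.33 to 38.3 ± 1.89 CPM.

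**Figure D4:**
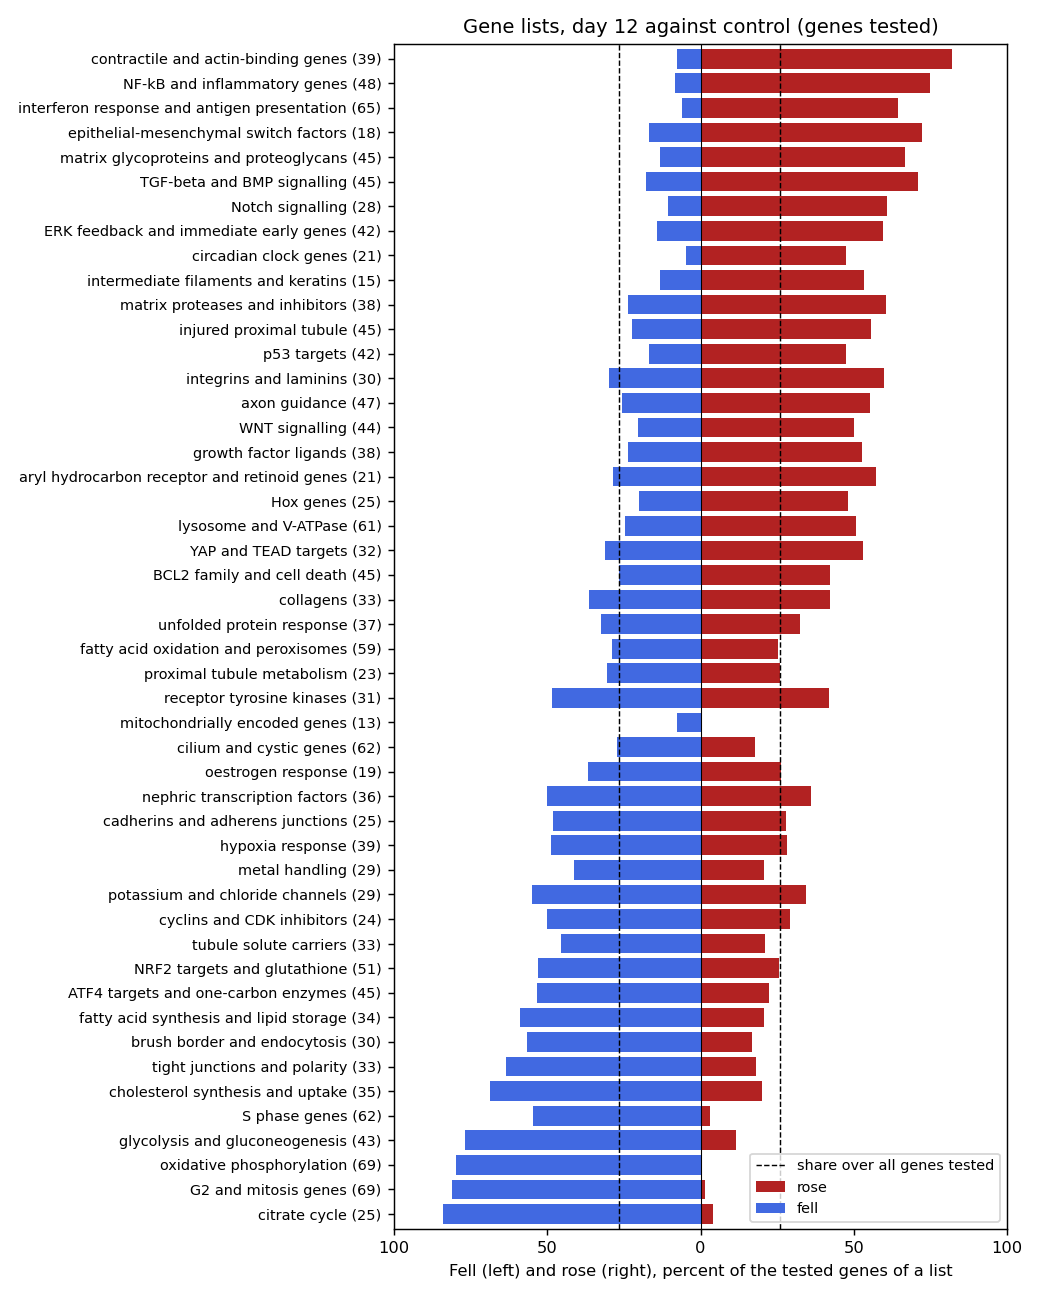
Share of the tested genes of each of 48 lists that rose (right) and fell (left), day 12 against control, with the number tested in brackets and the shares over all genes as dashed lines (26.1% and 26.6%). Contractile, NF-kB and interferon lists lie at the top, and citrate cycle, G2 and mitosis and oxidative phosphorylation lists at the bottom.

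Cell cycle genes were lower by less than 2-fold in most cases. Of 69 tested G2 and mitosis genes, 1 rose, 56 fell and 12 did not pass, with a median log2 fold change of -0.47. Plk1, a mitotic kinase gene, measured 132, 145 and 136 CPM in control and 61.5, 66.7 and 55.6 CPM at day 12 (log2 fold change -1.17 ± 0.07 (SE), adjusted p = 4.48e-16). Ccnb1, a mitotic cyclin gene, fell from 247 ± 2.54 to 135 ± 2.04 CPM, while Mki67, the gene of the proliferation antigen Ki-67, stood at 828 and 784 CPM without passing (adjusted p = 0.486). Of 62 S phase genes, 2 rose, 34 fell and 26 did not pass (median log2 fold change -0.20), with the thymidylate synthase gene Tyms down from 105 ± 2.15 to 63.0 ± 2.47 CPM. With limma on log2(TPM + 1), 21 S phase genes fell.

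More p53 target genes rose than fell, though they did not move as a block. Over all genes tested, 26.1% rose and 26.6% fell. Of 42 p53 targets tested, 20 rose, 7 fell and 15 did not pass. Ccng1, a cyclin G gene, measured 56.9, 52.7 and 43.6 CPM in control and 139, 165 and 153 CPM at day 12 (log2 fold change 1.58 ± 0.08 (SE), adjusted p = 1.57e-17), and had been at 53.1 ± 3.43 CPM at day 6 (log2 difference from day 6 1.53, adjusted p = 2.16e-15). The death receptor gene Fas rose from 0.507 ± 0.445 to 16.9 ± 1.76 CPM, Trp53inp1 from 36.8 ± 6.89 to 183 ± 6.85 CPM and Mdm2, which encodes the ligase that degrades p53, from 63.2 ± 3.52 to 103 ± 5.66 CPM. Cdkn1a, the gene of the cell cycle inhibitor p21, measured 181, 214 and 203 CPM in control and 103, 127 and 118 CPM at day 12 and fell (log2 fold change -0.78 ± 0.07 (SE), adjusted p = 5.00e-10), and Trp53 itself stood at 161 and 150.5 CPM (adjusted p = 0.165). In the cell death list 19 rose, 12 fell and 14 did not pass of 45, with the fallen share near that of all genes. The survival gene Bcl2 rose from 20.8 ± 0.810 to 43.7 ± 2.18 CPM and so did the death-promoting Pmaip1, from 5.06 ± 0.407 to 14.5 ± 0.445 CPM, and Bbc3, from 3.79 ± 1.02 to 9.76 ± 1.46 CPM.

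Several further large changes are given here, some in genes that can be placed in themes above. Klhl14, a gene of the kelch family, had 465, 361 and 489 counts in control and 0, 4 and 0 counts at day 12 and was 319-fold lower. The inward rectifier channel gene Kcnj16 measured 95.2, 83.7 and 86.5 CPM in control and 0.467, 1.01 and 0.308 CPM at day 12 and was 147-fold lower, and the kinesin gene Kif12 fell from 41.8 ± 5.77 to 0.296 ± 0.133 CPM. Among channel genes 10 rose, 16 fell and 3 did not pass of 29. The aminotransferase gene Bcat1 fell from 69.3 ± 4.03 to 1.85 ± 0.361 CPM, the motor gene Myo5b from 93.2 ± 3.92 to 2.33 ± 0.332 CPM and the lipase gene Lipg from 26.0 ± 2.95 to 0.633 ± 0.372 CPM. Upward, the mimecan gene Ogn rose from 0.293 ± 0.255 to 75.8 ± 10.4 CPM, the receptor-like gene Pdgfrl from 0.158 ± 0.0651 to 27.4 ± 0.279 CPM, the surface antigen gene Ly6a from 108 ± 15.05 to 889 ± 58.4 CPM and the oxidase gene Cyp1b1, a target of the aryl hydrocarbon receptor, from 1.27 ± 0.214 to 78.1 ± 3.36 CPM. The retinoic acid synthesis gene Aldh1a2 fell from 338 ± 13.3 to 83.8 ± 6.86 CPM.

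Counts of the remaining lists follow, to be read against the 26.1% of all genes tested that rose and the 26.6% that fell. Among lysosome and V-ATPase genes 31 rose, 15 fell and 15 did not pass of 61; the cathepsin gene Ctsb rose from 437 ± 7.84 to 687 ± 25.6 CPM and the mannosidase gene Manba fell from 207 ± 9.82 to 80.6 ± 2.18 CPM. Among cilium and cystic disease genes 11 rose, 17 fell and 34 did not pass of 62, with the hedgehog effector gene Gli2 up from 1.32 ± 0.198 to 20.998 ± 1.26 CPM. Among clock genes 10 rose, 1 fell and 10 did not pass of 21, including Per2 from 11.5 ± 1.89 to 26.2 ± 0.639 CPM, with no time of day in the labels. With either limma setting 5 clock genes rose, and Per2 did not pass (adjusted p = 0.285 and 0.313). Among Hox genes 12 rose, 5 fell and 8 did not pass of 25. Hoxa10 rose from 46.8 ± 3.55 to 84.4 ± 7.38 CPM and Hoxb2 fell from 28.5 ± 2.10 to 17.0 ± 1.63 CPM. With DESeq2, with either limma setting, without the filter on low counts and without control B or day 12 B, 3 Hox genes fell. Among genes of the oestrogen response, of interest because the drug binds oestrogen receptors, 5 rose, 7 fell and 7 did not pass of 19, and among those of the aryl hydrocarbon receptor and retinoids 12 rose, 6 fell and 3 did not pass of 21.

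Set beside day 6, the day 12 state was higher in some genes and lower in others. The largest differences upward from day 6, by the rule on named genes, were those of Sprr1a, Actg2, Ifi203, Ifi205, Fhl1, Tagln, Mndal and Dcn. Sprr1a, an envelope precursor gene of stratified epithelium, measured 1.27, 2.08 and 1.67 CPM in control and 18.3, 19.3 and 19.0 CPM at day 12 and was at 2.24 ± 0.214 CPM at day 6. Among the largest differences downward from day 6 were those of Hmcn1, Homer2, Gc, Cdkl1, Slco4a1, Dusp5 and Insig1. Of these, Hmcn1, Gc and Dusp5 were above control at day 12 and the others below it. Hmcn1, a large matrix protein gene, measured 16.4, 16.2 and 16.7 CPM in control and 55.2, 41.0 and 53.5 CPM at day 12 after 166 ± 17.3 CPM at day 6, and Gc, the vitamin D-binding protein gene, 2.19, 2.91 and 3.34 CPM in control and 44.2, 40.2 and 45.4 CPM at day 12 after 119 ± 14.6 CPM at day 6. In 64 of the 13513 genes the change from control had opposite signs at day 6 and day 12, each past the threshold, with a difference between those days past it too.

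**Figure D5:**
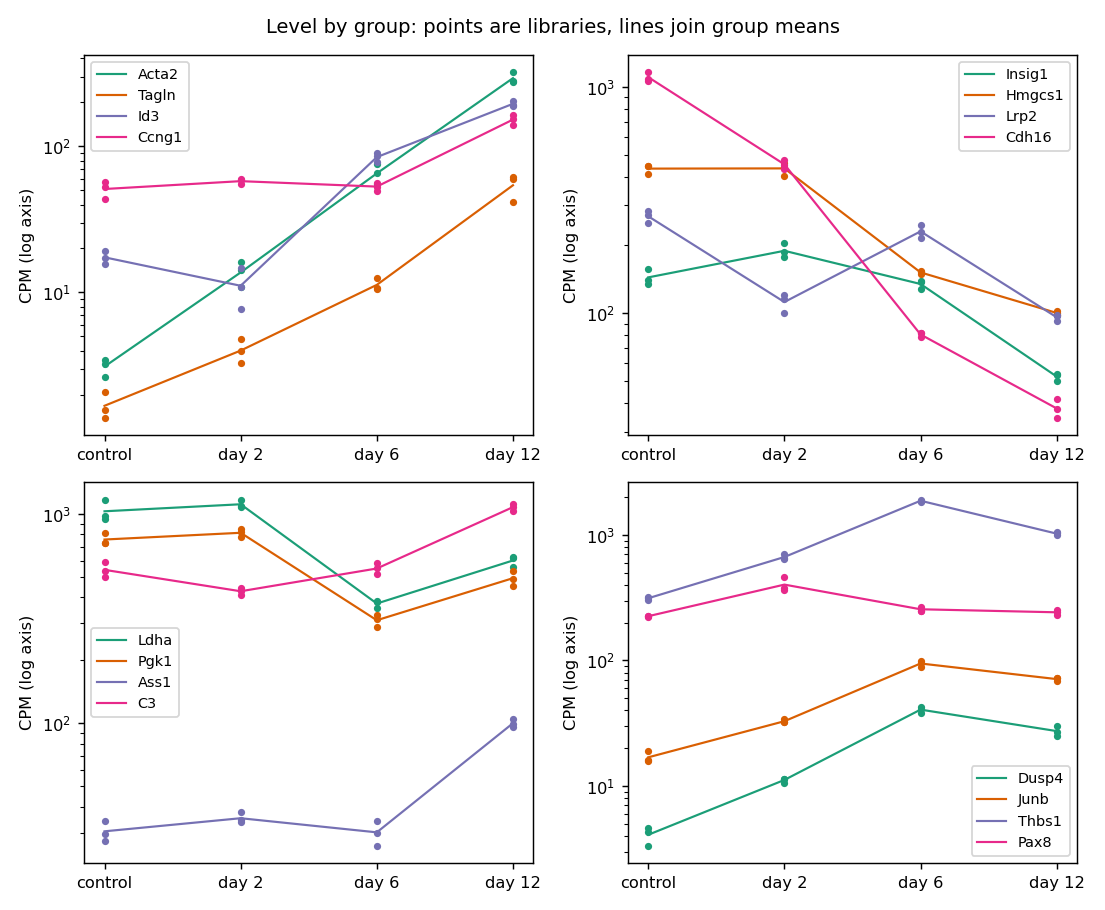
Level in CPM (log axis) of 16 genes in control, day 2, day 6 and day 12 (categories, not to a time scale). Points are libraries and lines join group means: Acta2 and Tagln are highest at day 12, Insig1 and Cdh16 lowest there, Ldha and Pgk1 lie above day 6 but below control, and Pax8 is highest at day 2.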

How the data were processed

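PolyA RNA of PT-22 cells was measured by bulk RNA sequencing. The authors deposited gene-level counts, whole numbers without normalization, and TPM (transcripts per 1000000) for the same libraries, per the file headers. The submitters' processing notes name RSEM 1.3.3, STAR 2.7.8a, FastQC 0.11.8, cutadapt 2.3 and the build GRCm38. The annotation release, strand use and filters are not given in the sources used here. Whether reads of overlapping and antisense genes were separated is therefore not known.

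Groups came from the labels, and the members, gene lists and motifs were chosen with earlier results of these data known. Counts of all 12 libraries entered 1 edgeR model (4.0.16, R 4.3.3) with group as its term, after filterByExpr and TMM scaling (8 residual degrees of freedom), with the quasi-likelihood test, Benjamini-Hochberg adjustment over the 13513 genes tested and a threshold of 0.05, two-sided. The script was tested on simulated data, where 2-fold changes of genes of low level were often missed: a first requirement on the share recovered over all levels was not met, and it was then set for genes of 5 CPM or more. Means are ± SD over 3 libraries of CPM with TMM scaling. A fold against a group at 0 counts uses 3 counts over that group, a fold against 1 to 3 counts is a count ratio with its 95% interval (counting error only), and other folds are fitted. Libraries of a group differed by more than sampling noise. Named genes were Pax8, Pax2, Pax5 and Cre, the markers, the 15 largest rises and falls at 5 CPM or more without overlap, the 12 largest in mean CPM, in each list the 10 with the smallest p and the 3 highest, and the 8 largest of each sign against day 6. Genes chosen after their values were seen are Snai1, Esrp1, Esrp2, Twist1, Snai2, the genes named with the CArG box and those of the sterol enzyme series. Some named genes are not reported here. Gene coordinates are from GENCODE M21. DESeq2 (1.42.0) and limma (3.58.1) served as alternatives.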

Additional observations from a re-analysis of the deposited data

Results flagged for a closer look

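These genes differed between day 12 and day 6 by the test of that difference in the same edgeR fit. In 3 named genes the changes from control were opposite on the 2 days. Ncam1 stood at 47.1 ± 2.63 CPM in control, 37.3 ± 1.70 CPM at day 6 and 61.5 ± 4.44 CPM at day 12 (log2 difference between the days 0.72, adjusted p = 7.58e-08). Slc38a2 stood at 653 ± 36.3 CPM in control, 762 ± 29.9 CPM at day 6 and 591 ± 35.0 CPM at day 12 (log2 difference between the days -0.37, adjusted p = 5.89e-06). The change of Slc38a2 between control and day 12 was lost without control A, control C, day 12 B or day 12 C. Wnk4 stood at 93.5 ± 5.74 CPM in control, 106 ± 12.1 CPM at day 6 and 74.5 ± 2.62 CPM at day 12 (log2 difference between the days -0.51, adjusted p = 4.01e-06). The change of Wnk4 between control and day 12 was lost with limma on log2(TPM + 1) and log2(TPM + 0.1) (adjusted p = 0.157 and 0.156), as was that of Slc38a2. The other 15 are among the largest differences of each sign, given as log2 day 12 minus day 6: Sprr1a (3.06), Actg2 (2.91), Ifi203 (2.48), Ifi205 (2.45), Fhl1 (2.31), Tagln (2.27), Mndal (2.21) and Dcn (2.19) were higher, and Hmcn1 (-1.73), Homer2 (-1.51), Gc (-1.46), Cdkl1 (-1.42), Slco4a1 (-1.37), Dusp5 (-1.37) and Insig1 (-1.36) were lower. The comparisons with control share the control libraries. No test for outlying libraries was made in groups of 3. Counts with single libraries left out are given below.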

How the results depend on the processing

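Leaving out each control and day 12 library in turn gave 6492 to 6711 genes past the threshold, 1869 to 1914 of them at least 2-fold, and, with the day 6 libraries left out in turn too (chosen after seeing the data), 2062 to 3017 between day 12 and day 6. DESeq2 gave 6456, and an adjusted p under 0.01 gave 5736 against control and 1793 against day 6. With limma on log2(TPM + 1) and log2(TPM + 0.1), 2398 and 2380 genes were lower at day 12 than in control, and 1379 and 1300 differed between day 12 and day 6; the cause was not tested. The letters A, B and C name no shared culture, and deviations of same-lettered control and day 12 libraries correlated at 0.111, 0.0773 and 0.0590, each library correlating best with its own letter. With the letter as a replicate block, 7164 genes passed, 1847 of them at least 2-fold, and 3040 against day 6. Of the 108 counts of risen or fallen genes per list, 11 moved by over 1.5 times with either limma setting and 4 at most with any other. With limma, 21 S phase, 10 cilium, 9 lysosome and 3 Hox genes fell and 5 clock and 3 glycolysis genes rose. The Hox count was also 3 with DESeq2, without the filter on low counts and without control B or day 12 B. Of 221 named genes, none reversed its sign under these settings. The calls of Per2 and Wnk4 were lost with both limma settings (adjusted p 0.285 and 0.313 for Per2, 0.156 and 0.157 for Wnk4). That of Slc38a2 was lost with limma, with upper-quartile scaling and without control A, control C, day 12 B or day 12 C (adjusted p 0.0592 to 0.356). At these depths, 2-fold changes of genes with few counts can miss the threshold.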
